A study of Rattus norvegicus with 63 samples.

Results

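Cytochrome P450 enzymes (P450s) of the hepatocyte oxidise drugs, hormones and pollutants, with electrons delivered by the reductase POR and, for some reactions, by cytochrome b5. CYP1A2 is a classical target of the aryl hydrocarbon receptor and oxidises aromatic amines and caffeine. CYP2C8 is the name of a human enzyme that oxidises retinoids and arachidonic acid, while CYP2E1 oxidises ethanol and other small molecules and activates dimethylnitrosamine and thioacetamide. CYP1A2 and CYP2E1 are, like glutamine synthetase (GLUL), concentrated in hepatocytes around the central vein.

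The levels of these enzymes were followed in the livers of 63 male Wistar Hanover rats, 8 to 10 weeks old at assignment, of which 45 had received 1 of 15 compounds by gavage and 18 the vehicle alone. All antibodies named CYP1A2, CYP2C8 or CYP2E1 were taken, with or without an antibody number after the name, which gave 5 of the 158 analytes on the reverse-phase protein array. They were 2 antibodies against CYP1A2 (CYP1A2_1 and CYP1A2_2), 1 against CYP2C8 and 2 against CYP2E1 (CYP2E1_1 and CYP2E1_2). The relative fluorescence intensity (RFI) of a spot is a linear brightness after local background correction, so levels can be compared between animals for the same antibody but not between antibodies. In the rat annotation of RefSeq (GRCr8), Cyp1a2 lies on chromosome 8 from 66971261 to 66978149 and Cyp2e1 on chromosome 1 from 205269967 to 205280365. None of the 17 rat genes with a symbol starting in Cyp2c is named Cyp2c8, so which rat protein the CYP2C8 antibody bound was not determined.

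Each group held 3 animals. Acetamide (AA, 3000 mg/kg per day), dehydroepiandrosterone (DHEA, 600) and methylcarbamate (Mcarb, 400) were given for 14 days, methapyrilene (MPy, 60) and thioacetamide (TAA, 19.2) for 7 days and Wy-14643 (Wy, 60) for 3 days, all with methylcellulose set 1 as their labelled controls. Cefuroxime (CFX, 250) and nifedipine (Nif, 3) were given for 14 days against methylcellulose set 2. Ethionine (ETH, 200) was given for 14 days, and diethylstilbestrol (DES, 10) and piperonylbutoxide (PBO, 1200) for 3 days, against methylcellulose set 5. Phenobarbital (PB, no dose on the label) was given for 14 days against methylcellulose set 6. C.I. Direct Black (CIDB, 146) and dimethylnitrosamine (DMN, 4) were given for 7 days against corn oil set 3, and cyproterone acetate (CPA, 100) for 14 days against corn oil set 4. The labels gave 14 days for every methylcellulose set, while the study's methods describe the vehicle controls as matched in time. Which of the sources is right for MPy, TAA, Wy, DES and PBO was not determined, and if the labels are, treatment and dosing time cannot be told apart for these compounds. The treated animals had been picked within larger dose groups for a visible change of the liver under the microscope, and their means therefore describe selected animals.

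The median RFI of an animal over all analytes ran from 0.425 to 0.882. 3 animals had member values far from the rest of their group. Control animal 3 of corn oil set 4 had the lowest median RFI of all animals, the lowest CYP1A2_1 (0.496) and CYP2C8 (0.374) and a CYP2E1_2 below 0 (-0.707). DES animal 2 had the highest CYP2C8 (10.2), CYP2E1_1 (0.898) and CYP2E1_2 (14.5) of all 63 animals, with the median RFI at place 46 of 63 from the lowest. PBO animal 3 had a CYP2E1_1 near 0 (0.00448). In whole liver lysate, fewer hepatocytes and less protein per hepatocyte cannot be told apart. Of 7 hepatocyte markers 4 were on the array (CYP1A2, CYP2E1, GLUL and HNF4A). HNF4A was found in all 63 animals (RFI 1.07 to 2.93), and none of the markers listed for bile duct, mesenchymal, endothelial or blood cells was measured.

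Each compound was compared with its labelled control set in a single limma model over all 63 animals, and adjusted p-values are by Benjamini-Hochberg over the 158 analytes of a comparison. Of 75 comparisons of a member antibody, 3 passed an adjusted p of 0.05. Over all analytes and compounds the share passing was 3.16%, with 1.43% higher and 1.73% lower. The 3 were a higher CYP1A2_1 in PBO, a lower CYP1A2_1 in Wy and a higher CYP2C8 in CPA. All 3 treated animals lay above the range of the controls in 6.88% of all comparisons and below it in 9.24%.

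**Figure D1:**
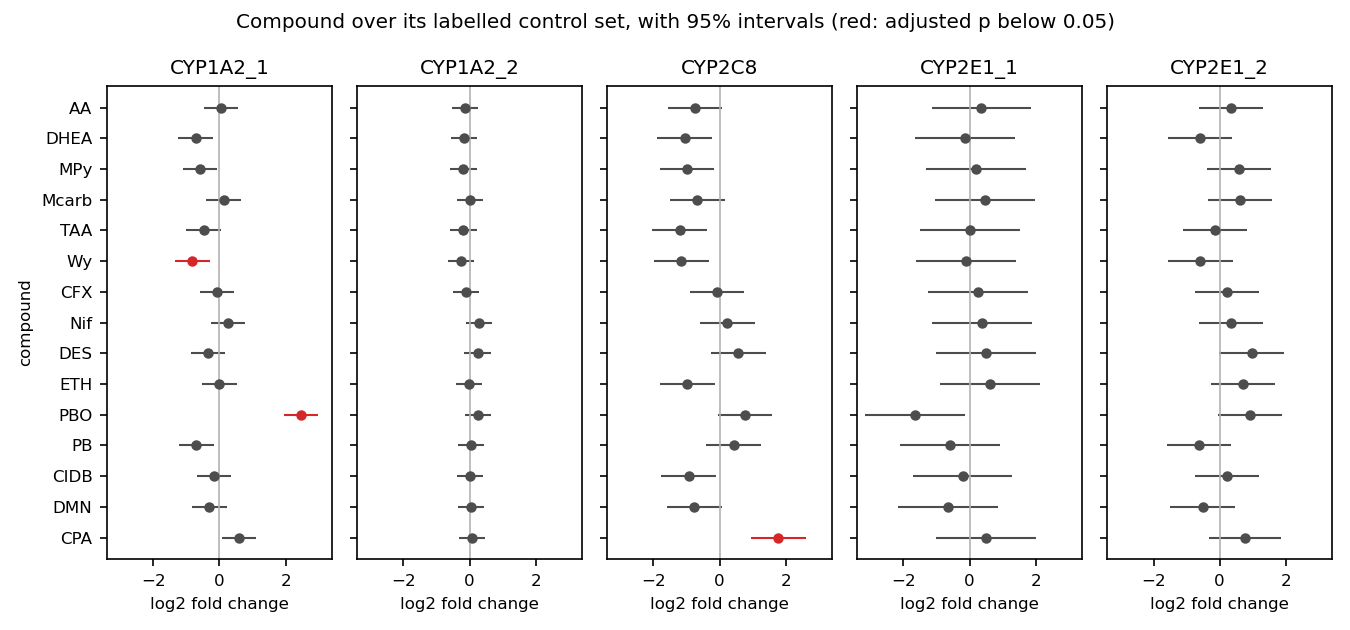
Log2 fold change of each compound over its labelled control set (x axis) for the 5 member antibodies, with 95% intervals from the limma model; compounds are grouped by control set on the y axis. Red points mark the 3 comparisons with an adjusted p below 0.05, CYP1A2_1 in PBO at 2.47 and in Wy at -0.82 and CYP2C8 in CPA at 1.77.

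CYP1A2 was higher in PBO, a methylenedioxyphenyl compound that is used as an insecticide synergist because it inhibits P450s, and the rise was seen with antibody CYP1A2_1. The 3 PBO animals had RFI of 4.63, 7.64 and 8.01, against 1.32, 1.17 and 1.08 in control set 5. All PBO animals were above all 12 methylcellulose controls, which ran from 0.997 to 2.32. The log2 fold change was 2.47 (SE 0.26, limma adjusted p = 1.5e-10). It stayed between 2.33 and 2.72 when each of the 6 animals was left out, and was 2.31 against all methylcellulose controls. In PBO 5.06% of the 158 analytes rose at this threshold. CYP1A2_1 was also higher in PBO than in the other compounds that share control set 5. It was lower by 2.82 on the log2 scale in DES than in PBO (limma adjusted p = 2.2e-12, with 3.8% of analytes called) and by 2.48 in ETH than in PBO (limma adjusted p = 1.4e-10, with 5.7% called). DES and PBO were both given for 3 days and ETH for 14, and the doses differed. These are from 20 pairs of compounds with shared controls, in which 7 of 100 member comparisons were called, beside 3.01% of all analytes. Of the 4 calls without PBO in the pair, 3 were of CYP1A2_1, with log2 differences of 0.87 for AA minus Wy, 0.95 for Mcarb minus Wy and -0.85 for DHEA minus Mcarb. PBO was the only group whose CYP1A2_1 range was apart from that of its neighbour in the order of group means.

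Antibody CYP1A2_2 did not show this rise. Its RFI in the PBO animals was 0.624, 0.515 and 0.495, against 0.534, 0.422 and 0.407 in control set 5, and the ranges overlapped. The log2 fold change of 0.26 had a 95% interval from -0.13 to 0.66. The difference between the antibodies in PBO was 2.20 on the log2 scale (SE 0.28, limma adjusted p = 2.6e-08), and lay between 2.00 and 2.56 with each animal left out. Across the 15 compounds CYP1A2_2 moved between -0.26 and 0.28, its treated and control ranges overlapped in all 15, and limma called 0 compounds, with 0 at an unadjusted p under 0.05 and 0 with trended and robust shrinkage. The array holds 2 readings under the name CYP1A2, and in PBO they differed. Between animals of a group, RFI of CYP1A2_1 followed the log2 ratios that the authors deposited under that name (Spearman coefficient 0.81 over 45 treated animals, on deviations from the group mean). CYP1A2_2 followed its own name less closely (0.35) than the ratios named RPS6_1 (0.78), and which antibody its RFI came from is uncertain. For 75 of the 158 analytes the ratios that followed the RFI most closely were those of the same name.

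**Figure D2:**
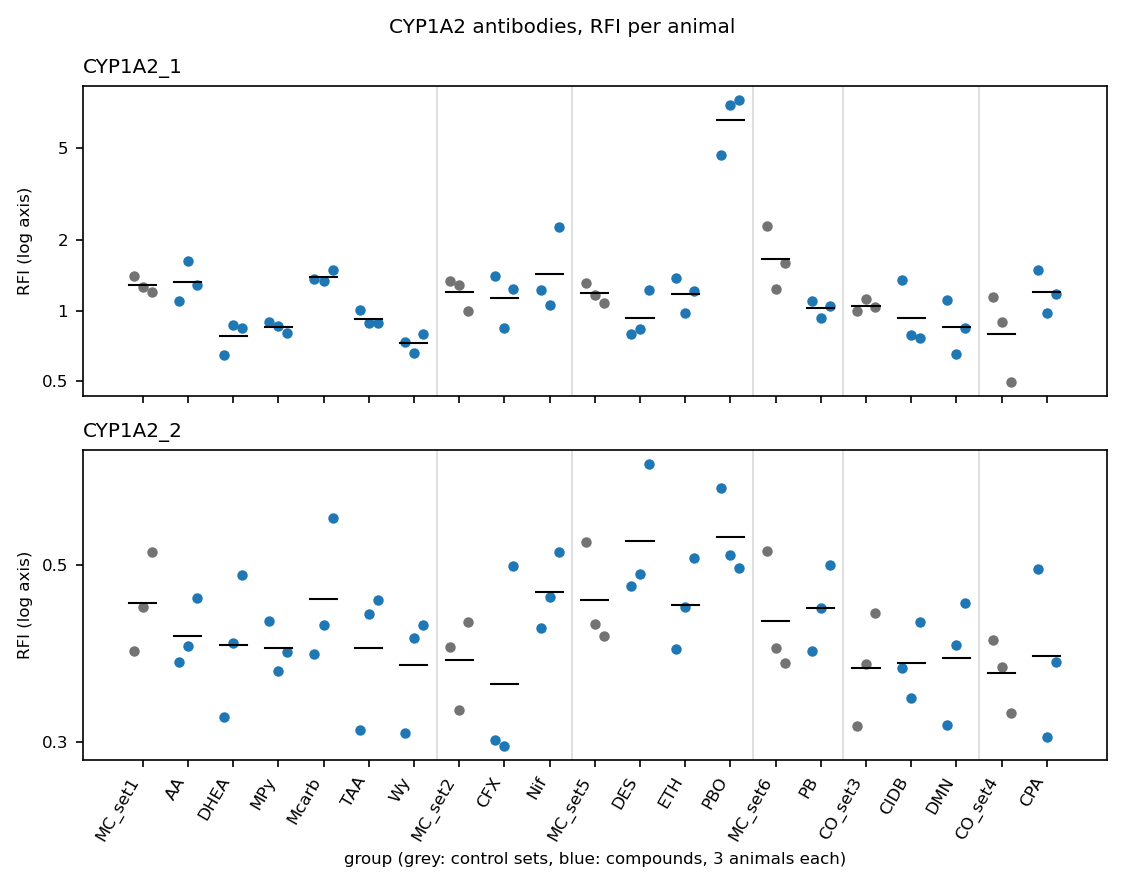
RFI of the CYP1A2 antibodies (log axis) in each animal, with control sets in grey beside the compounds compared with them in blue; black lines are geometric means of 3 animals. The 3 PBO animals sit between 4.63 and 8.01 for CYP1A2_1, apart from all other groups, and overlap with their controls for CYP1A2_2.

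A fall of CYP1A2_1 passed the test in Wy, an activator of the peroxisome proliferator receptor PPARA. The Wy animals had RFI of 0.734, 0.656 and 0.797, against 1.41, 1.26 and 1.20 in control set 1. No Wy animal reached the control range. The log2 fold change was -0.82 (SE 0.26, limma adjusted p = 0.0310), in a comparison where 7.59% of analytes fell. The call was held in 9 of 15 alternatives, in which the adjusted p ran from 0.00191 to 0.147, and it was lost without Wy animal 1 or 2, without any of the 3 controls and in the series matrix. The direction was the same in all 15.

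CYP1A2_1 was below the control range in 5 of 15 compounds (DHEA, MPy, PB, TAA and Wy) and above it in PBO alone. The shares over all analytes and compounds were 9.24% below and 6.88% above. DHEA animals were at 0.646, 0.865 and 0.847 against the same controls as Wy, with a log2 fold change of -0.72 (limma adjusted p = 0.0900). In PB the values were 1.10, 0.931 and 1.05 against 2.32, 1.24 and 1.60 in control set 6, and the log2 fold change was -0.70 (limma adjusted p = 0.0718). DHEA passed against all methylcellulose controls and in the fit of its 6 animals alone. It was not called at -0.51 after centring and at -0.49 in the series matrix (limma adjusted p from 0.00729 to 0.663 over the alternatives). DHEA also passed without control animal 3 of set 4 (limma adjusted p = 0.0483), which enters this comparison only through the shared variance. PB passed without control animal 2 of set 6 and without the 3 animals named above. It was at -0.37 against all methylcellulose controls, -0.29 after each animal had been centred on its median and -0.06 in the series matrix (limma adjusted p from 0.0318 to 0.971). The median log2 fold change of all analytes in PB was -0.29, and control animal 1 of set 6 had the highest median RFI of all animals (0.882). MPy was at -0.59 and TAA at -0.48, neither past the adjusted threshold. In CPA CYP1A2_1 had a log2 fold change of 0.59 (95% interval 0.06 to 1.11, limma adjusted p = 0.215), which was 0.24 without control animal 3 of set 4 and passed only without control animal 1. DHEA, MPy, TAA and Wy share their 3 control animals, so these are not separate observations of the reference. The remaining compounds lay between -0.35 and 0.26 with intervals that included 0.

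CYP2C8 was highest, by group mean, in PB, DES and PBO and lowest in TAA, control set 4 and Wy, and no group in this order was apart from its neighbour. The DES mean of 5.04 was 2.46 without animal 2, below that of control set 5 at 2.61, and the mean of control set 4 was 1.26 with animal 3 and 1.70 without it. A rise passed the test in CPA, a steroidal antiandrogen that also activates the pregnane X receptor. RFI was 3.03, 3.61 and 3.97 in the CPA animals, against 1.81, 1.60 and 0.374 in control set 4. All CPA animals were above all 3 controls, of which animal 3 stood far below the others. The log2 fold change was 1.77 (SE 0.41, limma adjusted p = 0.00266), in a comparison where 5.06% of analytes rose. Without control animal 3 it was 1.05 and no longer called (limma adjusted p = 0.257, range 0.000657 to 0.340 over the alternatives). Deviations of CPA and control animals of the same number had positive correlations (r 0.40, 0.18 and 0.22), which were not tested. Whether these animals were paired in the experiment was not determined. A fit of the 6 animals with this number as a block gave 1.77 with a limma adjusted p of 0.340. Without the block the 6 animals gave a limma adjusted p of 0.336. Control set 3, the other corn oil set, had RFI of 1.64, 2.98 and 2.93, and against both sets the log2 fold change was 1.15 (limma adjusted p = 0.0534).

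**Figure D3:**
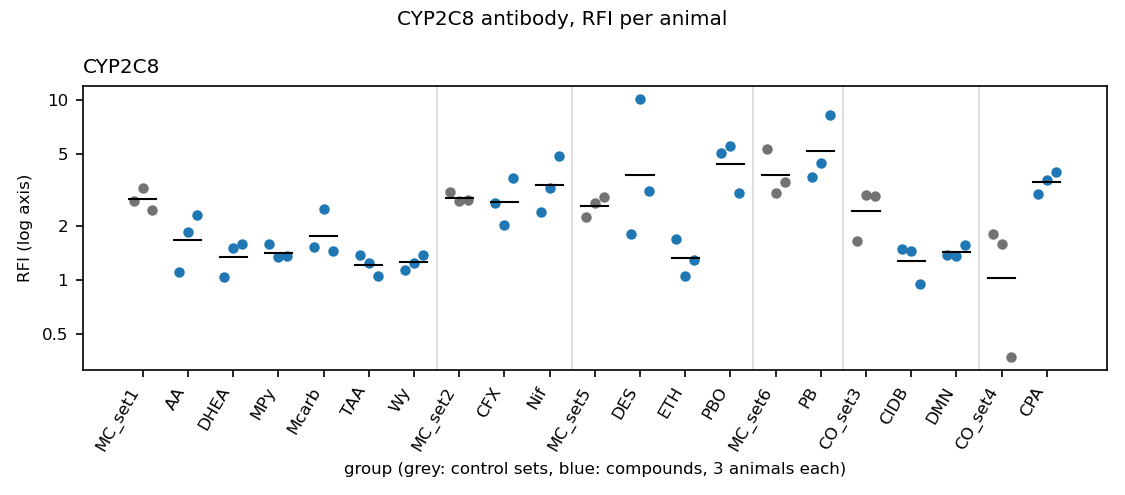
RFI of the CYP2C8 antibody (log axis) in each animal, with control sets in grey and compounds in blue; black lines are geometric means of 3 animals. The CPA animals at 3.03 to 3.97 lie above control set 4, whose animal 3 is at 0.374, and in 8 compounds all animals lie below their controls.

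CYP2C8 lay below the controls in more compounds than above them. In 8 of 15 compounds (AA, CIDB, DHEA, DMN, ETH, MPy, TAA and Wy) all 3 animals were below their control range, and in CPA and PBO all were above it. Over all analytes and compounds these shares were 9.24% below and 6.88% above. None of the 8 passed the adjusted test. 6 of them had an unadjusted p under 0.05, with log2 fold changes of -1.20 in TAA, -1.16 in Wy, -1.05 in DHEA, -0.98 in MPy, -0.97 in ETH and -0.93 in CIDB. TAA animals were at 1.38, 1.24 and 1.06 and Wy animals at 1.15, 1.25 and 1.39, against 2.77, 3.26 and 2.46 in control set 1. No treated animal of these groups came within the range of the controls. Against all 12 methylcellulose controls, which ran from 2.26 to 5.34, CYP2C8 was called lower in 5 compounds, namely DHEA, ETH, MPy, TAA and Wy, with log2 fold changes from -1.30 to -1.08. With this reference 3.12% of all analytes were called lower over the 15 compounds. AA, DHEA, MPy, TAA and Wy share control set 1, and CIDB and DMN share control set 3.

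CYP2C8 in PBO was at 5.12, 5.60 and 3.05 against 2.26, 2.67 and 2.91 in control set 5, with a log2 fold change of 0.77 (95% interval -0.06 to 1.60). ETH was lower than PBO by 1.75 on the log2 scale (limma adjusted p = 0.00277). DES minus ETH was 1.54 (limma adjusted p = 0.0484) and 0.84 without DES animal 2, when it no longer passed. DES held the widest spread, with 1.80, 10.2 and 3.13, and PB had 3.76, 4.48 and 8.31 against 5.34, 3.07 and 3.53. Neither DES nor PB was apart from its controls, and the log2 fold change of DES was 0.57 with animal 2 and -0.13 without it. Leaving out the 3 animals named above together, a choice made after the values had been seen, gave 5 calls of CYP2C8, with 4.26% of all analytes called, lower in CIDB, DHEA, TAA and Wy and higher in PBO, while CPA was not called.

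CYP2E1 was not called in any compound by either antibody. CYP2E1_1 had 1 compound with an unadjusted p under 0.05 and CYP2E1_2 had 0, and limma with trended and robust shrinkage called 0 as well. That 1 compound was PBO, in which CYP2E1_1 was at 0.582, 0.737 and 0.00448 against 0.350, 0.407 and 0.418 in control set 5. Animals 1 and 2 were above all controls and animal 3 far below them. The log2 fold change of -1.65 (limma adjusted p = 0.215) turned to 0.75 without animal 3 (limma adjusted p = 0.0920) and was 0.18 in the series matrix, and the adjusted p ran from 0.00717 to 0.938 over the alternatives. CYP2E1_2 read 6.12, 10.3 and 8.49 in the same PBO animals against 5.25, 3.49 and 4.34, so that animal 3 was not low with this antibody. The difference between the antibodies in PBO, -2.57 on the log2 scale (limma adjusted p = 0.0390), was -0.14 without animal 3.

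Higher CYP2E1_2 than in any control of the set was measured in PBO (log2 fold change 0.92, 95% interval -0.06 to 1.89) and in DES, where RFI was 6.09, 14.5 and 6.74 (log2 fold change 0.97, 95% interval -0.0041 to 1.94). Without DES animal 2 the latter was 0.58 (95% interval -0.49 to 1.64). The same DES animals read 0.446, 0.898 and 0.424 for CYP2E1_1, above the controls of set 5 as well, with a log2 fold change of 0.50 and of 0.16 without animal 2. For CYP2E1_1 all animals were also above the controls in ETH (0.607, 0.452 and 0.784) and below them in PB (0.383, 0.429 and 0.498 against 0.756, 0.642 and 0.567). CYP2E1_1 in PB went from -0.58 to -0.18 after centring and turned to 0.38 in the series matrix. DES, ETH and PBO share the controls of set 5, whose CYP2E1_1 mean was the lowest of the methylcellulose sets.

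Compounds that CYP2E1 activates gave no call. In DMN CYP2E1_1 was at 0.326, 0.385 and 0.293 against 0.359, 0.664 and 0.614, the lowest group mean of the series, and the log2 fold change of -0.66 had a 95% interval from -2.17 to 0.85. Without PBO animal 3, which enters the shared variance, the interval was -1.18 to -0.14 and the comparison was still not called by limma. CYP2E1_2 in DMN was at 5.06, 2.29 and 2.84, at -0.51 (95% interval -1.49 to 0.46). TAA gave 0.01 with CYP2E1_1 and -0.13 with CYP2E1_2. The within-group SD of CYP2E1_1 on the log2 scale was 0.96 over all animals and 0.32 without PBO animal 3. It was 0.62 for CYP2E1_2, 0.52 for CYP2C8, 0.32 for CYP1A2_1 and 0.24 for CYP1A2_2. The fit set the value below 0 of control animal 3 of set 4 to missing, so CYP2E1_2 in CPA (log2 fold change 0.77) rests on 2 controls.

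**Figure D4:**
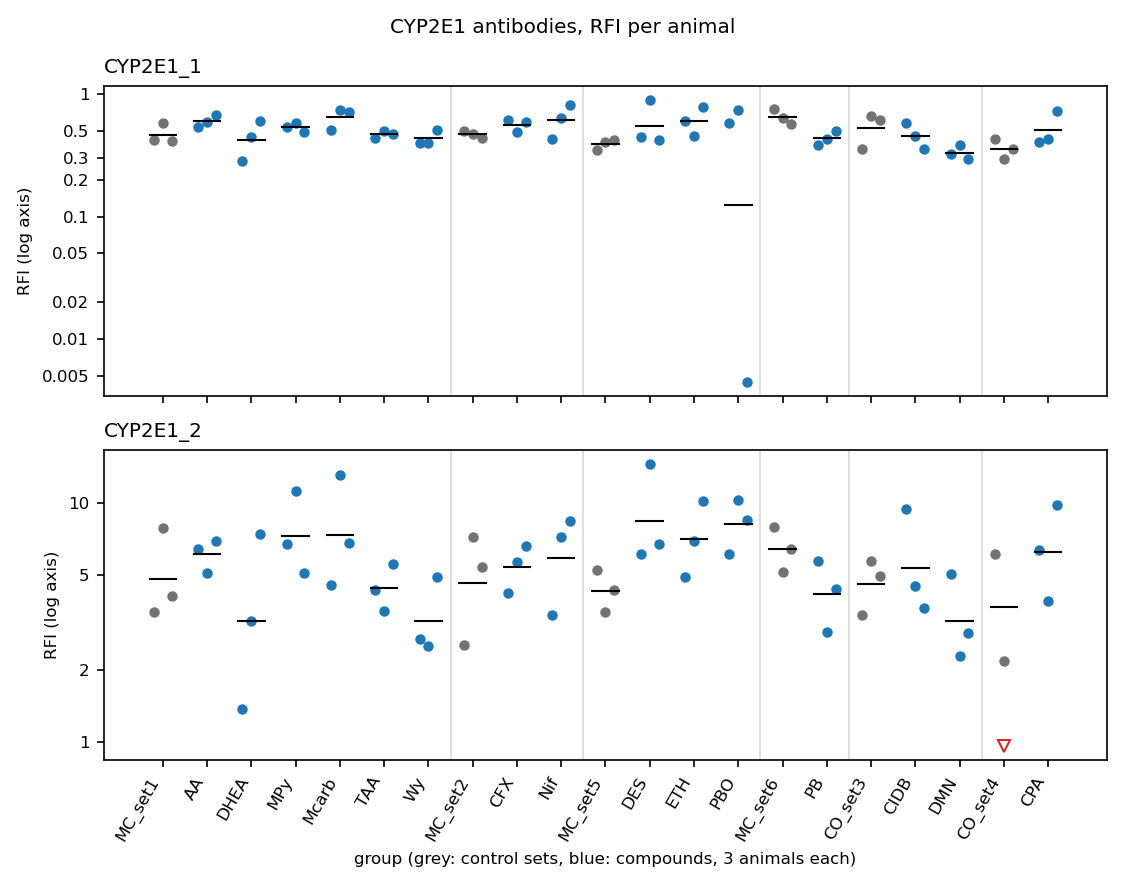
RFI of the CYP2E1 antibodies (log axis) in each animal, with control sets in grey and compounds in blue; black lines are geometric means of the values above 0, and the red open triangle marks a value below 0 (-0.707). PBO animal 3 is at 0.00448 for CYP2E1_1 and at 8.49 for CYP2E1_2, and DES animal 2 is the highest animal with both antibodies.

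Control sets of the same vehicle were compared in 7 pairs to measure the reference itself. 0 member comparisons were called by limma, where 0.0904% of all analytes were, 0 with trended and robust shrinkage, and 1 had an unadjusted p under 0.05. It was CYP2C8, higher in set 3 than in set 4 by 1.24 on the log2 scale (limma adjusted p = 0.325), with control animal 3 of set 4 in it. The sets differed by at most 0.49 for CYP1A2_1, 0.25 for CYP1A2_2, 0.57 for CYP2E1_2 and 0.74 for CYP2E1_1, the last between sets 5 and 6. For 6 compounds (CFX, DES, ETH, Nif, PB and PBO) the deposited log2 ratios came closer to ratios against a methylcellulose set other than the labelled one. Their reference is uncertain to that extent. Against all methylcellulose controls CYP1A2_1 in PBO remained called, CYP2C8 in ETH and CYP2E1_1 in PBO were called in addition, and the latter rests on PBO animal 3.

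The study grouped the compounds by carcinogenic class, and the members were compared between classes with the compound as the unit. 8 compounds were non-genotoxic carcinogens (NGC; AA, DES, DHEA, ETH, Mcarb, MPy, PB and PBO), 2 genotoxic carcinogens (GC; CIDB and DMN) and 2 non-carcinogens (NC; CFX and Nif), while CPA, TAA and Wy had no defined class and were left out. Limma called 0 members in the 3 contrasts, and 0 at an unadjusted p under 0.05. The share of all analytes called was 1.27% for NGC against NC, 0.633% for NGC against GC and 0% for all carcinogens against NC, where 14 analytes had an unadjusted p under 0.05 and trended and robust shrinkage called 0. By its own feature selection the study put CYP2C8 among the top proteins for carcinogens against NC, and described its changes in PB and PBO as uncharacteristic. For CYP2C8 the log2 difference was -0.59 for all carcinogens minus NC (95% interval -1.64 to 0.46). It was 0.79 for NGC minus GC (95% interval -0.28 to 1.87) and -0.43 for NGC minus NC (95% interval -1.50 to 0.64). For CYP2E1_2 NGC minus GC was 0.74 (95% interval -0.15 to 1.62). All these intervals include 0. Within NGC the compounds did not move together, as mean log2 ratios of CYP1A2_1 ran from -0.70 in DHEA to 2.49 in PBO and those of CYP2C8 from -1.03 in DHEA to 0.73 in PBO. Both GC were given in corn oil for 7 days, while all NGC and NC had methylcellulose controls. Both NC were given for 14 days against set 2, which no NGC shared. Class therefore cannot be told apart from vehicle and control set in contrasts with GC, nor from control set in those with NC. Dosing time also differed between classes, though some NGC shared the time of the GC or of the NC.

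The other 10 P450 antibodies were read in the comparisons where a member was called. In PBO 2 of them rose, CYP3A4_2 by 5.23 and CYP2B6_1 by 2.92 on the log2 scale, and 0 fell. The other antibodies of these names were not called in PBO, with CYP3A4_1 at -0.15, CYP2B6_2 at 0.12 and CYP2B6_3 at 1.11. CYP3A4 and CYP2B6 are targets of the pregnane X receptor and the constitutive androstane receptor. Which rat proteins the CYP3A4, CYP2B6 and CYP3A5 antibodies bound was not determined. The antibodies of CYP1A1, which shares the aryl hydrocarbon receptor with CYP1A2, were at 0.45 and 0.04 in PBO and passed in neither case. In CPA CYP3A4_2 rose by 5.36 and CYP2B6_1 by 2.04. There CYP3A4_1 was at 0.05, CYP2B6_2 at 0.29 and CYP2B6_3 at 0.93, and none of these was called. In Wy CYP3A5 rose by 1.52 and CYP2B6_3 had a log2 fold change of -2.19, both called. CYP2B6_1 and CYP2B6_2 were at 0.05 and 0.08 in Wy and were not called. Over all 15 compounds the 10 antibodies gave 9 higher and 4 lower calls, beside 1.43% higher and 1.73% lower among all analyte comparisons. Their median log2 fold change was -0.06 beside -0.03 over all analytes. POR, named here after its values had been seen, was called higher in PBO (1.49) and in CPA (1.29) and was at 0.04 in Wy. Cytochrome b5 (CYB5A), named on the same terms, was at 0.19 in PBO, -0.03 in CPA and 0.40 in Wy and passed in none.

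**Figure D5:**
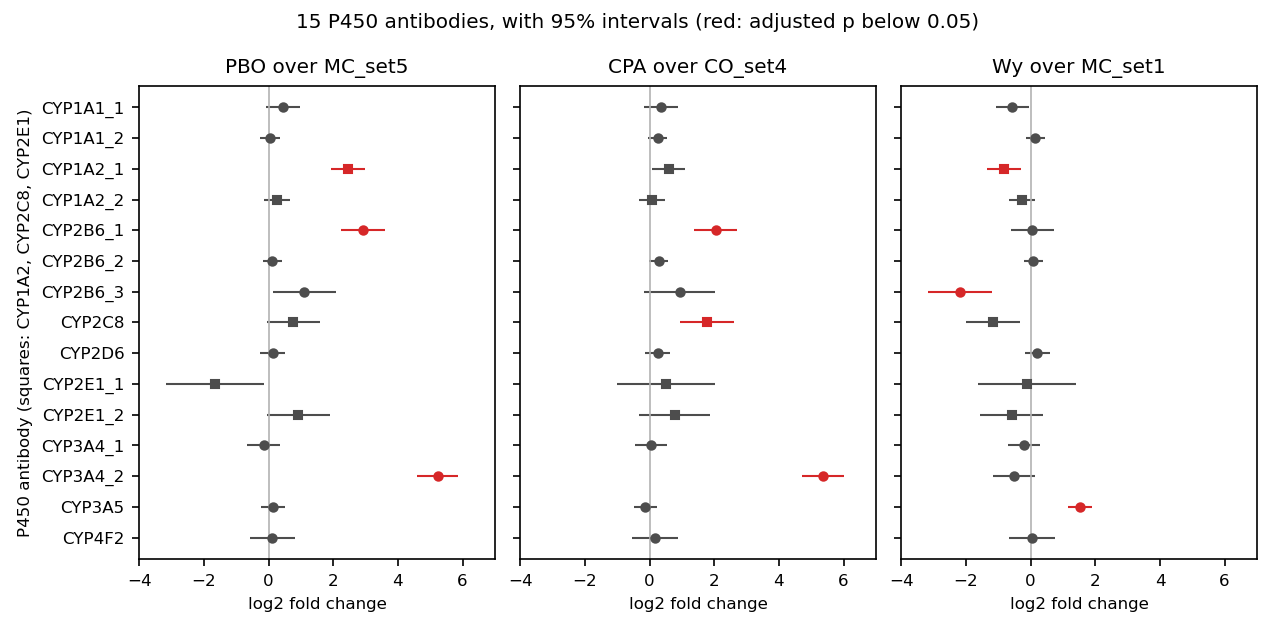
Log2 fold change (x axis) of the 15 P450 antibodies in PBO, CPA and Wy over their labelled control sets, with 95% intervals; squares are the CYP1A2, CYP2C8 and CYP2E1 antibodies and red marks an adjusted p below 0.05. CYP3A4_2 and CYP2B6_1 rose in PBO and CPA together with CYP1A2_1 in the first and CYP2C8 in the second.

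Of the regulators listed for these enzymes, HNF4A, PPARA with 3 antibodies and RXRA were on the array. None of these 5 antibodies passed in PBO, CPA or Wy. Over all compounds they gave 0 higher and 2 lower calls, beside 1.43% higher and 1.73% lower among all analyte comparisons. GLUL was read with values at or below 0 in several animals, among them 1 of 3 in PBO, CPA and Wy. The same held for 1 of 3 in control sets 2, 4 and 6, and the median RFI of all animals was 0.32. Its RFI in Wy ran from -2.28 to 0.127, against 0.792 to 1.50 in control set 1, and the groups did not overlap. In PBO it ran from -1.98 to 0.322 against 0.849 to 1.54. GLUL was below the controls in both, while CYP1A2_1 was below them in Wy and above them in PBO. With RFI at or below 0 left out, GLUL was called lower in Wy (log2 fold change -3.73, limma adjusted p = 0.00149). It was not called in PBO (-1.92, limma adjusted p = 0.192). CIDB and DES also had GLUL called lower, beside 1.73% of all analyte comparisons over the 15 compounds. The CIDB animals ran from 0.0122 to 0.194, so that log2 change includes a value close to 0. In TAA 2 of 3 animals had GLUL at or below 0. The TAA fit therefore rests on 1 animal, at 0.0615, and no call is read from it. CTNNB1, the beta-catenin that drives the perivenous programme, was at -0.45 in Wy and -0.07 in PBO on the log2 scale and passed in neither.

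The pattern of each antibody over the 21 group means was set beside those of all analytes of another name, as a description. CYP2C8 was most like CYP2B6_3 (Pearson r 0.88), and this was 0.88 also after each animal had been centred on its median, when CYP2B6_1 came next (0.67). For CYP1A2_1 the closest was SMAD2 phosphorylated at S245/S250/S255 (0.79), and for CYP1A2_2 they were MET phosphorylated at Y1349 (0.92) and GLB1 (0.83). CYP2E1_1 had its closest in PRKAA1 phosphorylated at T172 (0.55) and in HNF4A (0.50), and CYP2E1_2 in histone HIST1H3A phosphorylated at S10 (0.76) and ERBB2 phosphorylated at Y877 (0.75). CYP1A2_1 and CYP1A2_2 had r 0.61, and CYP2E1_1 and CYP2E1_2 r 0.12. The group means of CYP2E1_1 include PBO animal 3 at 0.00448, and the coefficients of CYP2E1_1 without this animal were not computed. The median r of CYP1A2_1 with all analytes was 0.39 before centring and 0.0028 after, so that part of such likeness was common to the array.

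Agreement from animal to animal within groups was measured for the 10 pairs of member antibodies, with animals permuted within their group and p-values adjusted over the 10 pairs. By the Spearman coefficient on uncentred values the closest pair was CYP2C8 with CYP2E1_1, at 0.72 (permutation p = 1.0e-05, the smallest possible, adjusted p = 0.0001). Its Pearson r was 0.39 (permutation p = 5e-05, adjusted p = 0.0005), and 0.42 without the 2 animals farthest in CYP2C8. These were control animal 3 of set 4 and DES animal 2, so PBO animal 3 stayed in. In every pair the 2 farthest animals were chosen by a single antibody of the pair. CYP2E1_1 and CYP2E1_2 had a Spearman coefficient of 0.58 (permutation p = 0.00016, adjusted p = 0.0008) and r 0.21 (permutation p = 0.0361, adjusted p = 0.0722), with r 0.39 without the 2 farthest animals, both of PBO. CYP2C8 with CYP2E1_2 had a Spearman coefficient of 0.38 and r 0.39 (permutation p = 0.00560 and 0.00262, adjusted p = 0.0187 and 0.0131), and r 0.33 without the 2 farthest. CYP2C8 with CYP1A2_1 had 0.39 and r 0.42, the highest Pearson r (permutation p = 0.0149 and 0.0276, adjusted p = 0.0371 and 0.0691), and r 0.30 without the 2 farthest. CYP1A2_1 and CYP1A2_2 had a Spearman coefficient of 0.21 and r 0.24 (permutation p = 0.154 and 0.105, adjusted p = 0.163 and 0.150), with r 0.19 without the 2 farthest. After centring on the animal's median the Spearman coefficient was 0.46 for CYP2C8 with CYP2E1_1 and 0.47 for the CYP2E1 antibodies (permutation p = 0.00317 and 0.00300, both with adjusted p = 0.0158). That of the CYP1A2 antibodies was -0.07 (permutation p = 0.643, adjusted p = 0.714). For CYP2C8 it was 0.15 with CYP1A2_1 and 0.19 with CYP2E1_2 (permutation adjusted p = 0.485 and 0.374). No Pearson r passed after centring, with 0.22 for CYP2C8 with CYP2E1_1 and 0.05 for the CYP2E1 pair (permutation adjusted p = 0.131 and 0.782). The Spearman coefficient passed the adjusted threshold on both scales for the CYP2E1 pair and on neither for the CYP1A2 pair. Group means of the CYP2E1 pair had r 0.12, with the far value of PBO animal 3 included.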

How the data were processed

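Liver lysates of 63 rats were read on ZeptoMARK reverse-phase protein arrays. The authors deposited for each animal the RFI of 158 analytes, an intensity on a linear scale. By their methods, local background was subtracted, values were normalized across the array, and replicate spots were combined as a weighted mean. The methods correct for a blank read with the secondary antibody alone before ratios are formed, and whether the deposited RFI already holds this correction was not given in the sources used here. Of 9954 values 25 were at or below 0, 1 of them among the 315 member values, and these were set to missing before log2. A series matrix, also deposited, holds log2 ratios to a median of control animals with gaps imputed. It served as an alternative, and all its columns matched a sample. Arrays have no read depth, so precision depends on the number of animals.

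Groups, doses, times and control sets came from the labels. A limma model (3.58.1, R 4.3.3) with 21 group means over 63 animals was fitted to log2 RFI, with two-sided tests and Benjamini-Hochberg adjustment over 158 analytes, with calls at adjusted p below 0.05. The SE and the 95% interval come from the moderated variance. Differences between antibodies of the same symbol and between compounds that share a control set were added to this model after the values had been seen. Class contrasts used the mean log2 ratio of each compound. Replicates are separate animals. CPA and set 4 animals share their numbers on the labels. Deviations of same-numbered animals had r of 0.40, 0.18 and 0.22, which was not tested for these animals. Whether they were paired in the experiment was not determined. Correlations within groups used 100000 permutations (SciPy). Scripts were tested on simulated data.

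The members and lists were chosen with earlier results of these data known. Named were all member antibodies, the other P450 antibodies in comparisons with a member call, GLUL, CTNNB1 and the 2 analytes most like each member, of which 1 is not reported here. Alternatives were all controls of the vehicle, centring, quantile normalization, trended and robust shrinkage, the 6 animals alone, imputation of values at or below 0, a pseudocount of 0.1, removal of the 40 dimmest analytes, the series matrix, the replicate block and leaving out each animal.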

Additional observations from a re-analysis of the deposited data

How the results depend on the processing

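CYP1A2 had 2 calls over the 15 compounds, 1 in the series matrix, where Wy was lost, and 3 against all controls of the vehicle and in the fits of 6 animals alone, where DHEA was added, and without the 3 animals with far member values, where PB was added. Leaving out each animal in turn gave 1 to 3, with CPA added without control animal 1 of set 4 and PB without control animal 2 of set 6. DHEA was added without control animal 3 of set 4 (limma adjusted p = 0.0483), which is not in its comparison. CYP2C8 had 1 call, which became 5 against all controls of the vehicle, 2 after centring each animal on its median, 3 after quantile normalization, 4 in the fits of 6 animals alone, and 5 without the 3 animals with far member values, a choice made after seeing the data. Leaving out each animal gave 1 to 3 calls, with 3 without control animal 3 of set 4, 2 without DES animal 1 and 3 without DES animal 2. CYP2E1 had 0 calls, 1 against all controls of the vehicle (CYP2E1_1 in PBO), 1 in the fits of 6 animals alone (CYP2E1_2 in PBO), and 0 to 1 with an animal left out. Member calls between control sets stayed at 0 in every alternative run. Those between classes were 0, and 1 in the series matrix (CYP2E1_1 higher in NGC than in GC by 1.06, limma adjusted p = 0.00689). CYP2E1_1 in PBO reversed to 0.18 in the series matrix and to 0.75 without animal 3, in a range from -2.94 to 0.75 with an animal left out, and for the other changes of count the cause was not tested. Of the 75 member comparisons 4 changed sign against all controls, 6 after centring, 7 after quantile normalization and 13 in the series matrix, and none of these was a called one. With the replicate block, fitted to the 6 animals of a comparison, CYP2C8 had 0 calls, as CPA no longer passed (limma adjusted p = 0.340). CPA was also lost in the fit of the 6 animals without the block. The block could be fitted only for CPA and PB, so it did not touch the CYP1A2 calls in PBO and Wy. For PB and control set 6 deviations of the same-numbered animals had r of 0.07, 0.01 and 0.09, also not tested. The block changed no other member call in CPA and PB.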
